A study of Drosophila melanogaster with 9 samples.

Results

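The enzymes of the citric acid cycle were followed at the transcript level in fly muscle that overexpressed Foxo or Mnt. The 10 genes chosen by name were kdn, mAcon1, Idh3a, Idh3b, Mdh2, Fum1, Scsalpha1, SdhB, SdhC and SdhD. A probe set with a single gene was available for 7 of the 10, each with 1 probe set, out of 11982 genes tested. For kdn (citrate synthase), Fum1 (fumarase) and Mdh2 (mitochondrial malate dehydrogenase) no probe set is named in the annotation used here, so these 3 members were not analysed.

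The citric acid cycle runs in the mitochondrial matrix and oxidises the acetyl group of acetyl-CoA to carbon dioxide. Its steps reduce NAD+ and the flavin of succinate dehydrogenase, and the electrons then feed the respiratory chain. Succinate dehydrogenase belongs to both systems, since it is a cycle enzyme and complex II of the chain. Insect flight muscle is densely packed with mitochondria and depends on this pathway for its energy.

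Arrays from 3 groups of male flies were compared, with 3 independent biological replicates per group. They were UAS-Foxo flies, which overexpressed the transcription factor that insulin signalling restrains, UAS-Mnt flies, which overexpressed a repressor that pairs with Max and opposes Myc, and control flies. RNA of each group came from at least 15 males, reared at 25 °C with 20 flies per vial after collection within 24 hours of eclosion. The series title calls both overexpressions muscle-specific, while the driver, the control genotype, the muscle taken and the age at extraction are not stated in the labels. Values are log2 signals made by the authors with RMA, which equalises the spread of signals between arrays and gives 1 value per probe set. Array medians lay between 5.70 and 5.95, and the precision is limited by the number of arrays.

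The Foxo arrays differed in their targeted gene, which was far higher in replicate 1 than in replicates 2 and 3. The foxo signal was 6.19, 1.15 and 1.87 times the control mean in Foxo replicates 1, 2 and 3, so that replicate 2 was close to the controls. Mnt was 2.60, 9.26 and 9.44 times the control mean in Mnt replicates 1, 2 and 3. Neither targeted gene was itself called by limma over all genes, with adjusted p of 0.279 for foxo in Foxo versus control and 0.450 for Mnt in Mnt versus control, so 0 calls does not show that a gene was unaltered. Without Mnt replicate 1 the adjusted p from limma for Mnt was 5.21e-06. Sarcomere genes gave a signal in every array, with a mean over 18 genes between 12.99 and 13.45, but levels of different probe sets cannot be compared, so this does not show how pure the muscle was. Testis transcripts were also present, with a mean over 15 markers of 8.13 to 9.35 in Foxo, 5.42 to 8.68 in Mnt and 5.43 to 8.19 in control arrays. Of these 15 markers, 14 had a higher mean in Foxo than in control arrays, and 14 a higher mean in Mnt than in control arrays.

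The mean signals of the 7 measured members differed little between the groups. They were tested with limma, a linear model that shares information on the spread between genes, and p-values were adjusted over all 11982 genes by the Benjamini-Hochberg method. In Foxo versus control the 7 measured members had log2 fold changes between -0.14 and 0.23 with a median of -0.01, against a median of -0.06 over all genes. Of the 7, 3 were higher and 4 lower, and limma called 0 of them at an adjusted p under 0.05, where 0.100% of all genes were called. At an unadjusted p under 0.05 the count was 1 of 7, against 17.8% of all genes. The Foxo and control arrays did not overlap for 3 of 7 members, against 23.6% of all genes.

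In Mnt versus control the members ran between -0.15 and 0.08 on the log2 scale with a median of 0.00, which was also the median over all genes. Here limma called 0 of 7 members, and 0% of all genes. The unadjusted count was 1 of 7, against 3.54% of all genes, and the groups did not overlap for 2 of 7, against 8.91%. Foxo versus Mnt gave a median of 0.03, against -0.04 over all genes, with 0 of 7 members called and 0.134% of all genes called. Its unadjusted count was 1 of 7, against 13.4%, and the groups did not overlap for 2 of 7 members, against 18.1%. The first pair of comparisons shares the control arrays. With 7 members, 1 gene is a large step in such a share, and nothing is read from these counts about the members as a group.

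The precision for these genes bounds the differences in signal, and not in transcript amount, that could have been missed. All 7 probe sets were bright, and whether bright signals are compressed was not tested. The 95% confidence intervals of all 7 members lay between -0.26 and 0.47 on the log2 scale in Foxo versus control, and between -0.29 and 0.33 in Mnt versus control. The standard errors of the members' log2 fold changes were 0.05 to 0.11 in Foxo versus control, where the median over all genes was 0.11. Fewer cells of a type and less RNA per cell cannot be told apart in such bulk samples, and a change shared by most transcripts is hidden by RMA.

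**Figure D1:**
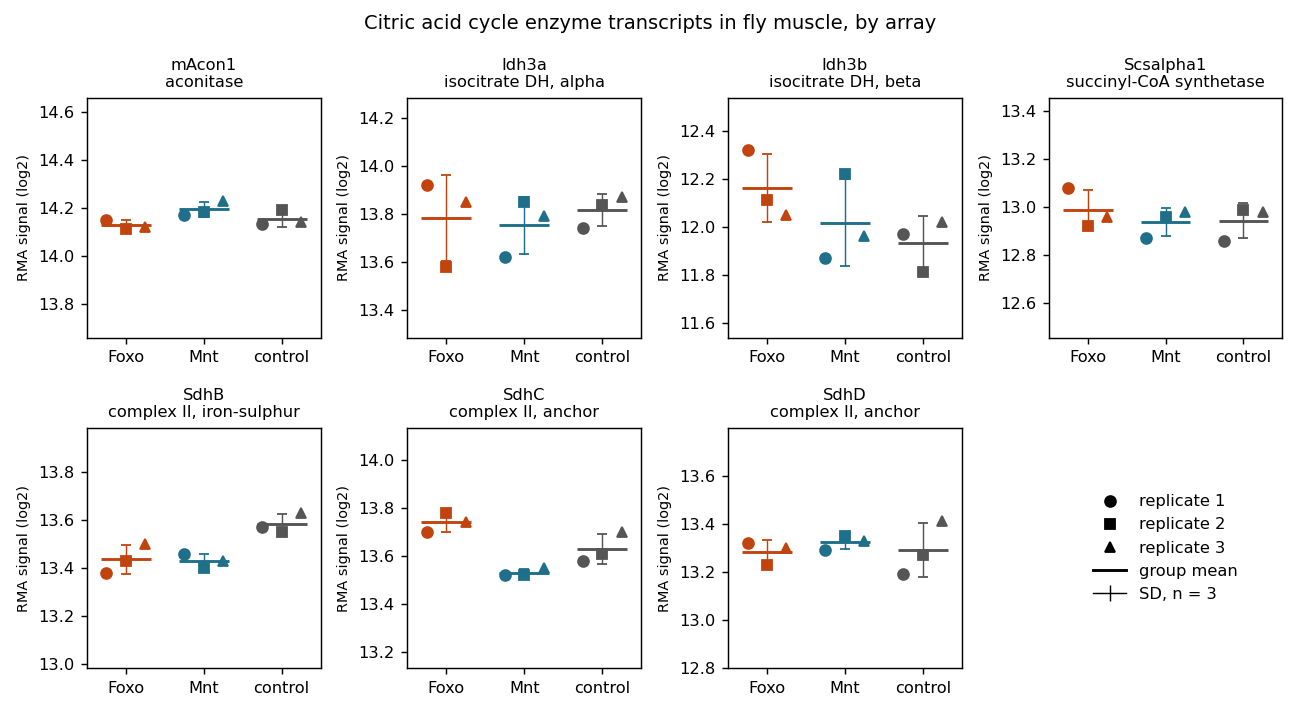
RMA signal (log2) of the 7 measured cycle genes in each array, by group. Symbols are single arrays, bars are group means and whiskers are SDs (n = 3), and every panel spans the same log2 range. Only SdhB has all arrays of both overexpression groups below all controls, and SdhC is high in Foxo and low in Mnt arrays.

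mAcon1 encodes mitochondrial aconitase, the iron-sulphur enzyme that turns citrate into isocitrate. Its signal (probe set 1634989_at) was 14.15, 14.11 and 14.12 in Foxo arrays, 14.17, 14.18 and 14.23 in Mnt arrays, and 14.13, 14.19 and 14.14 in control arrays. The whole spread over 9 arrays was 0.12 on the log2 scale, or 1.09-fold. All 3 Foxo arrays lay below all 3 Mnt arrays, by a log2 fold change of -0.07 ± 0.05 (SE, n = 3 per group, limma adjusted p = 0.476), while neither group separated from the controls. The signal is near the top of the scale, since the brightest probe set reached 14.68 on the array where that maximum was lowest. Whether bright signals are compressed there was not tested.

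The NAD+-dependent isocitrate dehydrogenase carries out the next step, an oxidation that adenine nucleotides regulate. In mammals its alpha subunit is catalytic, and its beta and gamma subunits regulate it. Idh3a (probe set 1634846_a_at) had signals of 13.92, 13.58 and 13.85 in Foxo arrays, 13.62, 13.85 and 13.79 in Mnt arrays, and 13.74, 13.84 and 13.87 in control arrays. The groups overlapped throughout, with log2 fold changes of -0.03 ± 0.10 in Foxo and -0.06 ± 0.10 in Mnt arrays against controls (SE, n = 3 per group; adjusted p from limma of 0.884 and 0.999).

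Idh3b had the largest log2 fold change among the members in these 3 comparisons, although it was not called. Its signal (probe set 1629745_at) was 12.32, 12.11 and 12.05 in Foxo arrays, 11.87, 12.22 and 11.96 in Mnt arrays, and 11.97, 11.81 and 12.02 in control arrays. Each Foxo array lay above each control, by 1.17 times on average (log2 fold change 0.23 ± 0.11, SE, n = 3 per group, limma adjusted p = 0.300), which did not pass the threshold. Foxo replicate 3 exceeded the highest control by little, and Foxo 1 was the highest of all 9 arrays. Without Foxo replicate 1 the log2 fold change was 0.15 (limma adjusted p = 0.444), without control replicate 2 it was 0.16, and without Foxo replicate 2 it was 0.25. It was 0.12 with each array centred on its median and 0.36 with the mean of the testis markers as a covariate (limma adjusted p = 0.649). In Mnt arrays Idh3b overlapped the controls (0.08 ± 0.11, adjusted p = 0.999).

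The isocitrate dehydrogenase subunits can also be set against each other within an array, where only the change of the difference between groups can be read. Idh3b minus Idh3a was -1.61, -1.47 and -1.81 in Foxo arrays, -1.75, -1.63 and -1.83 in Mnt arrays, and -1.77, -2.03 and -1.85 in control arrays. The groups overlapped in all 3 comparisons. Idh3g, the gamma subunit gene, gave a difference from Idh3a of -0.91 ± 0.08 in Foxo, -0.93 ± 0.11 in Mnt and -1.01 ± 0.09 in control arrays (SD, n = 3 each), which also overlapped.

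Scsalpha1 encodes the alpha subunit of succinyl-CoA synthetase, the enzyme that makes a nucleoside triphosphate directly. The alpha subunit pairs with either of the beta subunits ScsbetaA and ScsbetaG, which in vertebrates set the nucleotide used. Scsalpha1 (probe set 1638529_at) had signals of 13.08, 12.92 and 12.96 in Foxo arrays, 12.87, 12.96 and 12.98 in Mnt arrays, and 12.86, 12.99 and 12.98 in control arrays. The 3 groups overlapped, and the log2 fold changes against controls were 0.04 ± 0.06 in Foxo and 0.00 ± 0.06 in Mnt arrays (SE, n = 3 per group; adjusted p from limma of 0.717 and 0.999). The difference between ScsbetaA and Scsalpha1 signals overlapped between the groups, at -0.78 ± 0.01 in Foxo, -0.75 ± 0.08 in Mnt and -0.78 ± 0.05 in control arrays (SD, n = 3 each).

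Complex II oxidises succinate to fumarate. SdhA carries the flavin, SdhB the iron-sulphur clusters, and SdhC and SdhD anchor both in the inner membrane. SdhA is not named by a probe set here and was not analysed. SdhB and SdhC were the only members whose arrays separated in more than 1 comparison, and the values of SdhB, SdhC and SdhD did not run in parallel. The comparisons share arrays, and the share of all genes that separated in more than 1 comparison was not computed.

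SdhB (probe set 1640632_at) had signals of 13.38, 13.43 and 13.50 in Foxo arrays, 13.46, 13.40 and 13.43 in Mnt arrays, and 13.57, 13.55 and 13.63 in control arrays. All 6 overexpression arrays lay below all 3 controls, and the share of all genes with this order was not computed. SdhB was 1.10 times lower in Foxo than in control arrays (log2 fold change -0.14 ± 0.05, SE, n = 3 per group, limma unadjusted p = 0.0223 and adjusted p = 0.276). It was 1.11 times lower in Mnt than in control arrays (-0.15 ± 0.05, limma unadjusted p = 0.0191 and adjusted p = 0.999). Neither value passed the threshold, and both rest on the same 3 controls. The difference between Foxo and Mnt arrays was 0.01 ± 0.05, with a 95% confidence interval of -0.11 to 0.12. SdhB was the only member with an unadjusted p under 0.05 against controls in either group. Its sign was kept in all 20 alternatives of both comparisons, with -0.25 to -0.12 in Foxo and -0.19 to -0.13 in Mnt arrays. Several alternatives, such as the replicate block, the filters and the stricter threshold, cannot move its fold change, so a kept sign says little there. The value of -0.25 came from centring each array on its median, and without Foxo replicate 2 the Foxo value stayed at -0.14 (limma adjusted p = 0.503).

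SdhC (probe set 1639507_at) had signals of 13.70, 13.78 and 13.74 in Foxo arrays, 13.52, 13.52 and 13.55 in Mnt arrays, and 13.58, 13.61 and 13.70 in control arrays. Every Foxo array lay above the controls, although Foxo replicate 1 and control replicate 3 were equal to 2 decimals, and every Mnt array lay below the controls. SdhC was 1.16 times higher in Foxo than in Mnt arrays (log2 fold change 0.21 ± 0.05, SE, n = 3 per group, limma unadjusted p = 0.00255 and adjusted p = 0.179). By unadjusted p it stood at rank 170 of the 11982 genes in that comparison, and it did not pass the threshold. Against controls the log2 fold changes were 0.11 ± 0.05 in Foxo arrays (adjusted p = 0.283) and -0.10 ± 0.05 in Mnt arrays (adjusted p = 0.999). The Foxo value depended on the scaling, since it was 0.01 with each array centred on its median. The Foxo versus Mnt value was 0.15 after that step and 0.20 without Foxo replicate 2 (limma adjusted p = 0.338).

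SdhD (probe set 1627518_at) had signals of 13.32, 13.23 and 13.30 in Foxo arrays, 13.29, 13.35 and 13.33 in Mnt arrays, and 13.19, 13.27 and 13.41 in control arrays. The controls spanned the full range of the other groups. Its log2 fold change was -0.01 ± 0.06 in Foxo and 0.03 ± 0.06 in Mnt arrays against controls (SE, n = 3 per group; adjusted p from limma of 0.963 and 0.999).

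**Figure D2:**
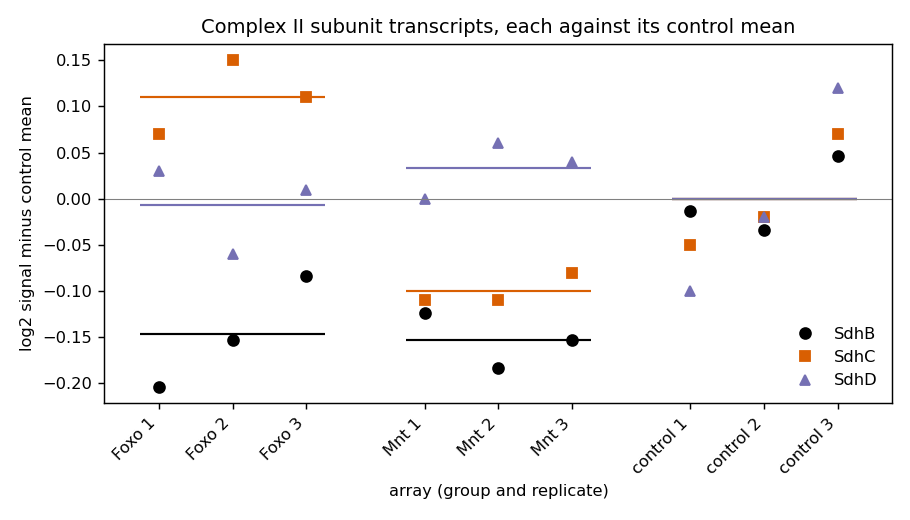
Log2 signal of the complex II subunit genes in each array minus the mean of that gene over the 3 controls. Points are arrays and horizontal lines are group means: SdhB lies below 0 in all 6 overexpression arrays, SdhC above 0 in Foxo and below 0 in Mnt arrays, and SdhD on both sides of 0 in Foxo and control arrays.

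The balance of these subunits was compared within arrays, where a shift common to the array drops out. SdhC minus SdhB was 0.32, 0.35 and 0.24 in Foxo arrays, 0.05, 0.12 and 0.11 in Mnt arrays, and 0.01, 0.06 and 0.07 in control arrays. The Foxo arrays stood apart from both other groups, with a mean difference of 0.26 from controls and 0.21 from Mnt arrays on the log2 scale. The exact permutation test, two-sided, gave p = 0.100 in each case, the smallest value that 3 arrays against 3 allow over 20 groupings. Mnt and control arrays overlapped in this measure, with a mean difference of 0.05. This measure was chosen after the values were seen, and it was 1 of 6 such subunit pairs computed. A difference within an array shows unequal change and not which subunit changed.

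SdhD minus SdhB was -0.06, -0.20 and -0.20 in Foxo arrays, -0.17, -0.05 and -0.11 in Mnt arrays, and -0.38, -0.27 and -0.22 in control arrays. Both overexpression groups lay above the controls, by 0.14 in Foxo and 0.18 in Mnt arrays. Foxo and Mnt arrays overlapped, and the exact permutation p against controls was 0.100 in both cases. SdhC minus SdhD was 0.38, 0.55 and 0.44 in Foxo arrays, 0.22, 0.17 and 0.22 in Mnt arrays, and 0.39, 0.34 and 0.29 in control arrays. In this pair Foxo overlapped the controls (mean difference 0.12, exact permutation p = 0.200), while Mnt lay below them (-0.14, exact permutation p = 0.100). Which group stood apart from the controls thus depended on the pair of subunits. The 3 pairs are differences of the same single-gene values, so they depend on each other and add no separate result. The caution given for the pair above holds for these as well, and 0.100 is again the smallest p the test allows.

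**Figure D3:**
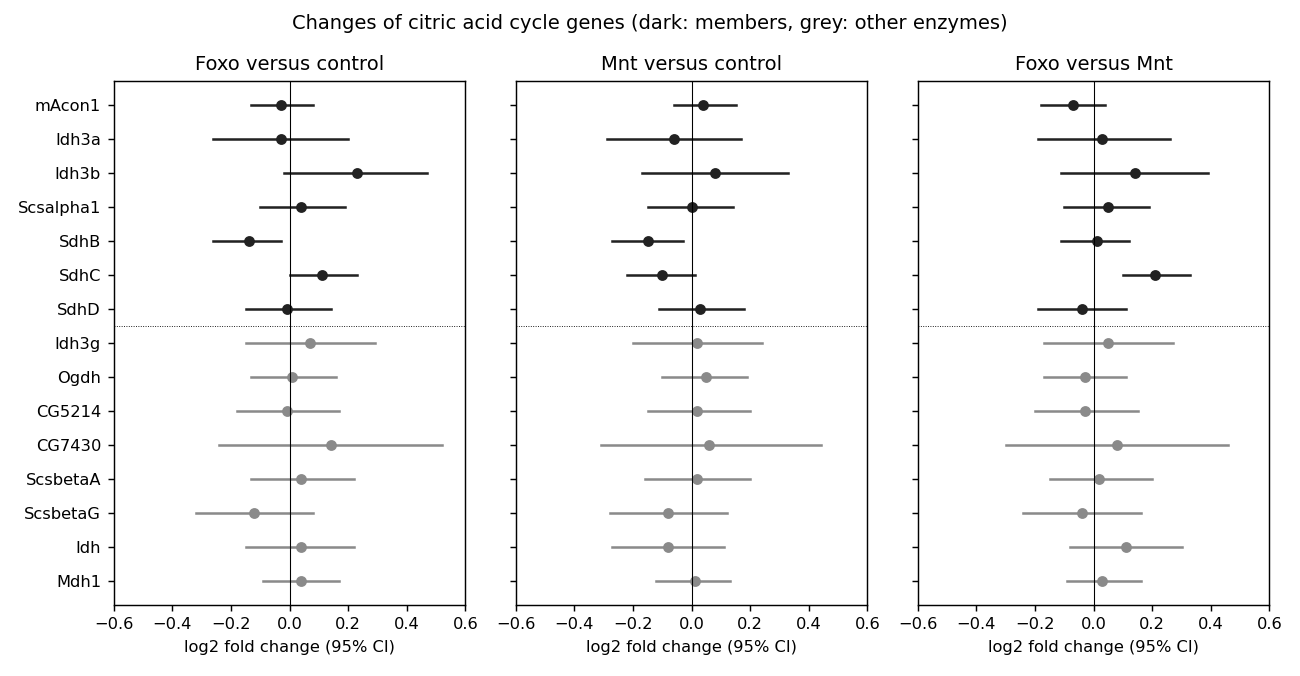
Log2 fold changes with 95% confidence intervals from limma for the 7 members (dark) and the 8 other measured enzymes of the cycle (grey), in 3 comparisons. All points lie between -0.15 and 0.23, and only SdhB against controls and SdhC in Foxo versus Mnt have intervals that leave out 0, before adjustment over all genes.

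The other enzymes of the cycle likewise gave no call. Of 9 genes listed, 8 were measured, and limma called 0 of the 8 in each comparison. The shares of all genes called were 0.100% in Foxo versus control, 0% in Mnt versus control and 0.134% in Foxo versus Mnt. At an unadjusted p under 0.05 the count was 0 of 8 in each, against 17.8%, 3.54% and 13.4% of all genes in the same order. Nothing is read from these counts about the 8 genes as a group. In Foxo versus control their log2 fold changes ran from -0.12 to 0.14 with 6 higher and 2 lower, and in Mnt versus control from -0.08 to 0.06 with 6 higher and 2 lower. The 2-oxoglutarate dehydrogenase complex was represented by Ogdh (E1, 0.01 ± 0.06 in Foxo versus control), CG5214 (E2, -0.01 ± 0.08) and CG7430 (E3, 0.14 ± 0.16; SE, n = 3 per group). ScsbetaG, with 3 probe sets, had -0.12 ± 0.09 by its brightest one, and ScsbetaA had 0.04 ± 0.08. The NADP+-dependent enzyme Idh and the cytosolic malate dehydrogenase Mdh1 both had 0.04, with SEs of 0.08 and 0.06. In Mnt versus control the value of Idh was -0.08 ± 0.08.

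For the mean of the members, arrays of a group differed by more than the group means did. The mean over the 7 members was 13.41, 13.31 and 13.36 in Foxo arrays, 13.26, 13.36 and 13.32 in Mnt arrays, and 13.29, 13.32 and 13.39 in control arrays. Foxo replicate 1 was the highest array for 3 of the 7 members, and control replicate 3 for 2 of them. Mnt replicate 1 and control replicate 1 each had 1 member above its mean over the 9 arrays. Sarcomere genes were low in the same 2 arrays and in Foxo 2 and high in Foxo 1, with means of 13.45, 12.99 and 13.27 in Foxo arrays, 13.06, 13.36 and 13.22 in Mnt arrays, and 13.00, 13.15 and 13.13 in control arrays. Their part in the spread of the members was not tested.

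Within groups, SDs differed between members. The pooled within-group SD of the log2 signal was 0.029 for mAcon1, 0.043 for SdhC and 0.046 for SdhB. It was 0.071 for Scsalpha1 and 0.072 for SdhD, and reached 0.130 for Idh3a and 0.146 for Idh3b. These values placed mAcon1, SdhC and SdhB at the 0.108, 0.901 and 1.29 percentiles of all genes, and Idh3a and Idh3b at the 44.1 and 54.1 percentiles. All 7 probe sets were bright, at or above the 97.2 percentile of mean signal, which is a statement on the probes and not on transcript amounts.

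The genes whose signal was most like the mean of the members over the 9 arrays were looked up among 5984 genes of at least median signal. The 5 of highest Pearson correlation were ND-42 (0.939), which encodes a subunit of complex I, CG9547 (0.925), CG13295 (0.901), CG7430 (0.890) and CG3760 (0.883). CG7430 is the E3 gene given above. In the mean of the members the most variable genes weigh most, so likeness to it is not likeness to each member. Idh3a and Idh3b spanned 0.34 and 0.50 on the log2 scale over the 9 arrays, and the other members at most 0.26. These correlations describe 9 arrays that share their normalization and carry no test, and the highest of 5984 values is large by selection. ND-42 was 13.59, 13.34 and 13.49 in Foxo arrays, 13.29, 13.45 and 13.40 in Mnt arrays, and 13.26, 13.36 and 13.47 in control arrays, so that its order of arrays also had Foxo 1 at the top.

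Variant copies of the cycle enzymes were examined as a separate list. The Drosophila genome holds extra genes for several of these enzymes, a number of which are known as testis genes. All 13 listed copies were measured, and all 13 had a higher mean in Foxo than in control arrays, with a median log2 fold change of 0.88. Most of these probe sets were dim: 9 of the 13 were among the 40% of genes with the lowest mean signal, against 0 of the 7 members, so that their values come from the low end of the scale. At an unadjusted p under 0.05, 10 of the 13 were higher, where 8.31% of all genes were. For 10 the Foxo arrays lay above all controls, where 8.24% of all genes did. All 13 exceeded their own mean over the 9 arrays in Foxo 2, Foxo 3 and Mnt 3, so the copies are not separate observations. As for the members, nothing is read from these counts about the copies as a group. Limma called 0 of the 13 at an adjusted p under 0.05, against 0.100% of all genes, with a lowest adjusted p of 0.276. In Mnt versus control the median was 0.25, with all 13 higher. There 0 were called, against 0% of all genes, and 0 had an unadjusted p under 0.05, against 3.54%.

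SdhBL, a copy of SdhB, had signals of 6.10, 7.71 and 7.64 in Foxo arrays, 5.73, 5.35 and 7.28 in Mnt arrays, and 6.43, 5.60 and 4.89 in control arrays. CG14740, a citrate synthase copy, had 7.25, 8.44 and 7.92 in Foxo arrays, 6.94, 5.88 and 7.93 in Mnt arrays, and 7.22, 6.11 and 5.71 in control arrays. Both were high in Foxo 2, Foxo 3 and Mnt 3, and low in Mnt 2 and control 3. Testis markers ran the same way, with means of 8.13, 9.35 and 8.73 in Foxo arrays, 7.64, 5.42 and 8.68 in Mnt arrays, and 8.19, 6.90 and 5.43 in control arrays. Foxo 2 was the highest array for 11 of the 13 copies, and its foxo signal was 1.15 times the control mean. In Foxo 1, with foxo at 6.19 times the control mean, the copies averaged 5.93, against 5.12 to 5.85 in control arrays. Foxo 2 was also the array with the highest testis mean. With that mean as a covariate the median log2 fold change of the copies in Foxo versus control was 0.37, with 1 of 13 at an unadjusted p under 0.05, against 6.56% of all genes in that fit. The testis mean itself averaged 8.74 in Foxo and 6.84 in control arrays, so the covariate takes up part of the difference between these groups. That fit also has fewer residual degrees of freedom, so its counts cannot be set against those of the main fit. The part of Foxo and of testis RNA in the copies' values was not tested.

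The members had another order of arrays. Their mean spanned 0.15 on the log2 scale over the 9 arrays, while that of the variant copies spanned 1.69 and that of the testis markers 3.93. Foxo 2, the array richest in testis transcripts, was the lowest array for 2 of the 7 members and the highest for 1. With the testis mean as a covariate the median log2 fold change of the members was 0.08 in Foxo versus control and 0.01 in Mnt versus control. The value of SdhB was then -0.15 in both comparisons, and that of SdhC was 0.13 and -0.10. Idh3b was at 0.36 in Foxo versus control in this fit, against 0.23 without the covariate.

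**Figure D4:**
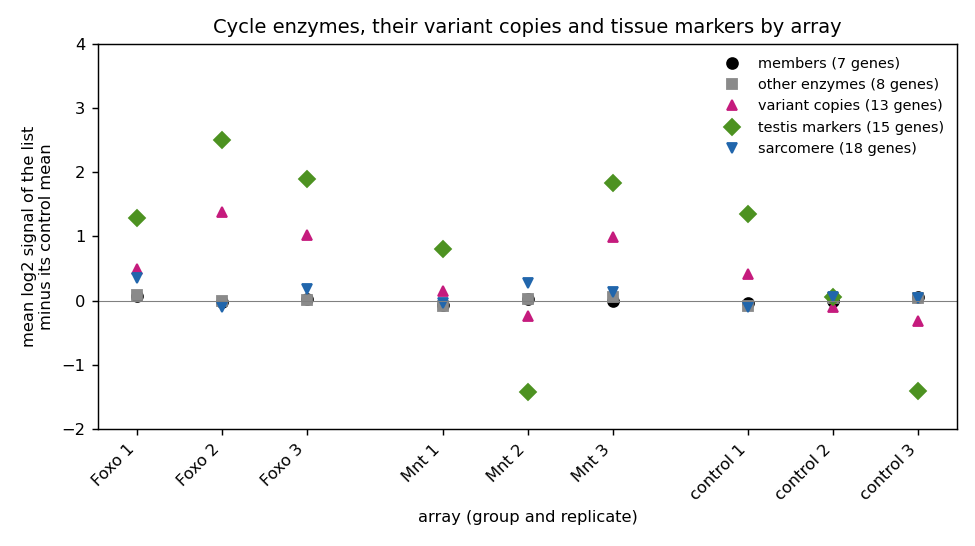
Mean log2 signal of each gene list in each array minus its mean over the 3 controls. Cycle members and other enzymes stay close to 0 in all 9 arrays, while variant copies and testis markers are high in Foxo 2, Foxo 3 and Mnt 3 and low in Mnt 2 and control 3.

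Markers of other tissues were also set beside these values. The mean of 5 haemocyte genes was 9.21 to 9.32 in Foxo, 9.54 to 9.67 in Mnt and 9.45 to 9.66 in control arrays, and that of 5 gut genes was 12.28 to 12.81 in Foxo, 11.01 to 12.13 in Mnt and 11.53 to 12.06 in control arrays. The mean of 12 accessory gland genes was 9.30 in Foxo replicate 3 and at most 5.31 in the others. The mean of 5 fat body genes overlapped between groups, at 9.56 to 10.11 in Foxo, 9.32 to 10.20 in Mnt and 9.15 to 10.12 in control arrays. That of 5 photoreceptor and neuron genes was 6.78 to 7.37 in Foxo, 6.42 to 7.07 in Mnt and 7.24 to 7.33 in control arrays. A mean over so few genes can rest on 1 of them and does not show a shift of a cell type. Of the haemocyte genes, NimC1 was 7.89 to 8.12 in Foxo and 8.75 to 9.29 in control arrays. The haemocyte gene crq had a higher mean in Foxo than in control arrays, and the other 4 a lower one. The fat body gene Lsp2 ran from 5.84 to 11.00 over the 9 arrays. The part of these markers in the SdhB, SdhC and Idh3b values was not tested.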

How the data were processed

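The authors deposited log2 RMA signals of 18952 probe sets on Affymetrix Drosophila Genome 2.0 arrays, per the labels and the submitters' processing notes (RMA version not given in the sources used here). These log2 values lay between 2.62 and 14.84 and entered the tests as the authors deposited them. Groups and replicate numbers came from the sample titles. The 183 control probe sets were left out. The platform annotation named 1 gene for 13647 probe sets and several for 402, and did not list 4720; of the 13647, 13544 matched the Release 6 plus ISO1 MT annotation. The probe set of highest mean stood for its gene. Limma 3.58.1 in R 4.3.3 was fitted to all 9 arrays (lmFit, eBayes with intensity trend, 6 residual degrees of freedom), two-sided, with Benjamini-Hochberg adjustment over 11982 genes and a threshold of 0.05. The fit was also run on simulated data with independent noise in each gene. Such data lack variation that genes share across arrays, so nothing is read from that run here. The members, lists and tests were chosen with earlier results of these data known. The text names all members, the other enzymes of the cycle, the variant copies by range, foxo, Mnt, and the 5 genes most like the members. CG31873, first listed as a copy, is Mulk and was left out for its annotation. The alternatives were a replicate block, only the arrays compared, no trend, array weights, rescaling, filters, other probe set rules, a stricter threshold, the testis mean as covariate and leaving out each array. A planned promoter motif count was not run.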

Additional observations from a re-analysis of the deposited data

Results flagged for a closer look

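Among the members and the other enzymes of the cycle, a pair of genes had all Foxo arrays on one side of the control mean and all Mnt arrays on the other. The share of all genes with this order was not computed, so nothing is read from that count. SdhC lay 0.08 to 0.15 above the control mean in Foxo arrays, and at -0.11 to -0.08 from it in Mnt arrays, a difference of 0.21 on the log2 scale. The limma test of that difference, Foxo versus Mnt, gave an adjusted p of 0.179 (n = 3 per group), so it did not pass over all genes. The range over its 20 alternatives was 0.0907 to 0.416. For mAcon1 the Foxo arrays were at -0.04 to 0.00 and the Mnt arrays at 0.02 to 0.08 from the control mean. Its difference of -0.07 had a limma adjusted p of 0.476, with 0.348 to 0.753 over its alternatives.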

How the results depend on the processing

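No member was called in any of the 3 comparisons under any of the 20 alternatives, replicate block included, and no value of a member changed its side of the threshold. Correlations of deviations from the group means gave no sign that replicate numbers pair the arrays. Those of same-number arrays ran from -0.70 to 0.11, 1 of 9 was over 0.1, and 2 of 9 arrays correlated best with their own number. With 3 arrays per group the deviations depend on each other, so these correlations cannot settle whether same-number arrays share a batch. The members' median log2 fold change moved with scaling and with the testis covariate. In Foxo versus control it was -0.11 with arrays centred on their medians, 0.08 with the testis covariate, and -0.04 to 0.07 with 1 array left out, where 0.07 came without Foxo replicate 2; the main value was -0.01. In Foxo versus Mnt it was -0.03 after centring and 0.09 with the covariate, against 0.03, and 0.00 to 0.08 with 1 array left out. The background count over all genes was less stable. In Foxo versus control it was 12 genes, against 0 with the replicate block, 0 in a fit of 6 arrays, 4 without the trend, 28 after centring, 6 without probe sets ending in _s_at or _x_at, 3 at 0.01, 7 with the covariate, and 0 to 13 with 1 array left out. In Foxo versus Mnt it was 16, against 1, 0, 5 and 31 in the first 4 of these, 0 at 0.01, 6 with the covariate, and 0 to 14 with 1 array left out. In Mnt versus control it was 0, and 0 to 1 with 1 array left out. Causes were not tested.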
